A study of Mus musculus with 12 samples.

Results

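The data described here are the progesterone receptor (PR) binding sites of whole mouse mammary glands with the Y541S form of estrogen receptor alpha (ERα, the product of Esr1) and of glands with wild-type (WT) ERα. The members are 4 lists of ChIP-seq peaks, 2 libraries of each genotype, out of the 8 lists with deposited peaks that were read here and the 12 samples that the series describes. The other 4 lists hold ERα peaks of the same 2 genotypes and serve only to say where PR sites coincide with ERα sites. The samples of a further mutant, D542G, were not analysed here.

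All animals were raised to 8 weeks of age, received implants of estradiol and progesterone (E2+P4), and gave tissue 4 days later, so both genotypes carry the same hormone treatment and no library comes from an untreated gland. Minced glands were fixed, the chromatin was sheared to 300 to 500 bp, and 30 µg was precipitated with 4 µg of antibody. The submitters call the 2 libraries of a condition biological replicates, and the labels say neither how many animals each holds nor whether the mutation is on 1 or both alleles. The tissue is labelled whole mammary gland, although the series title speaks of luminal cells. In bulk tissue a site occupied in fewer cells and a site occupied less often in each cell cannot be told apart.

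PR is a nuclear receptor that binds progesterone and then DNA, mainly at palindromic response elements that it shares with the glucocorticoid receptor. In the mammary gland PR is made by hormone-sensing luminal cells, and Pgr itself is a classic target of ERα. Progesterone acts there largely through secreted signals such as the RANK ligand (Tnfsf11) and Wnt4, which reach neighbouring cells that lack PR. Y541S lies in the ligand-binding domain of mouse ERα and is the counterpart of a substitution found in endocrine-resistant human breast cancer, where the receptor is active without estrogen.

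A peak list gives for every site its position, a fold enrichment over local background and a −log10 p. WT replicate 1 held 82982 peaks, WT replicate 2 held 93491, Y541S replicate 1 held 113695 and Y541S replicate 2 held 101382. Both Y541S lists were longer, with a mean of 107538.5 ± 8707 (SD, n = 2) against 88236.5 ± 7431 (SD, n = 2). The exact permutation test of 2 libraries against 2 gave p = 0.33 (two-sided), which is the smallest value that this design allows. The libraries also differed in how far peaks stood above background. The 20000th strongest peak had a −log10 p of 8.24 and 10.7 in WT replicates 1 and 2, and of 31.4 and 15.2 in Y541S replicates 1 and 2. Heights were therefore tested only as ranks within a list, folds are given beside ranks as a description, and lists were also compared at equal length, as the 20000 peaks with the highest −log10 p in each.

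The strongest PR sites were the same in both genotypes. Every peak of ranks 1 to 500 in each list was overlapped by a peak in each of the other 3 whole lists. The region inside Pkhd1 (chr1:20409751-20410624, mm10) ranked 10 and 11 in the WT libraries and 6 and 4 in the Y541S libraries, with folds between 22.8 and 25.0. The region inside Nek7, a mitotic kinase gene (chr1:138606618-138607370), ranked 5 and 5 in WT and 12 and 2 in Y541S. The region 32.3 kb from Dhx8, an RNA helicase gene (chr11:101700139-101701201), was the strongest peak of WT replicate 1 and ranked 6, 24 and 11 in WT replicate 2 and Y541S replicates 1 and 2. The regions inside Fhad1, Patl2 and Lipc likewise stayed within rank 26 in every library. None of these 6 regions passed the rank test described below.

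In the whole lists recovery fell with rank, and it was higher in the longer Y541S lists than in the WT lists. Of the peaks of Y541S replicate 1 at ranks 15001 to 20000, 97.6% were overlapped in Y541S replicate 2, against 88.4% in WT replicate 1 and 89.4% in WT replicate 2. Of those of Y541S replicate 2, 99.2% were overlapped in Y541S replicate 1, against 83.4% and 90.5% in the WT libraries. WT peaks did not show a matching preference for the other WT list. Of those of WT replicate 1 at the same ranks, 98.1% were overlapped in Y541S replicate 1 and 91.7% in Y541S replicate 2, but only 88.5% in WT replicate 2. With all lists held to their 20000 strongest peaks the gaps were smaller, and Y541S peaks no longer favoured the other Y541S list in both libraries. Of the same peaks of Y541S replicate 1, 39.7% were then overlapped in Y541S replicate 2, against 44.5% and 38.9% in WT replicates 1 and 2. Of those of Y541S replicate 2 it was 45.1% in Y541S replicate 1, against 39.4% and 43.8% in the WT lists. WT replicate 1 had 38.7% in the other WT list, against 43.5% and 39.5% in the Y541S lists, and WT replicate 2 had 39.3%, against 40.0% and 42.4%.

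**Figure D1:**
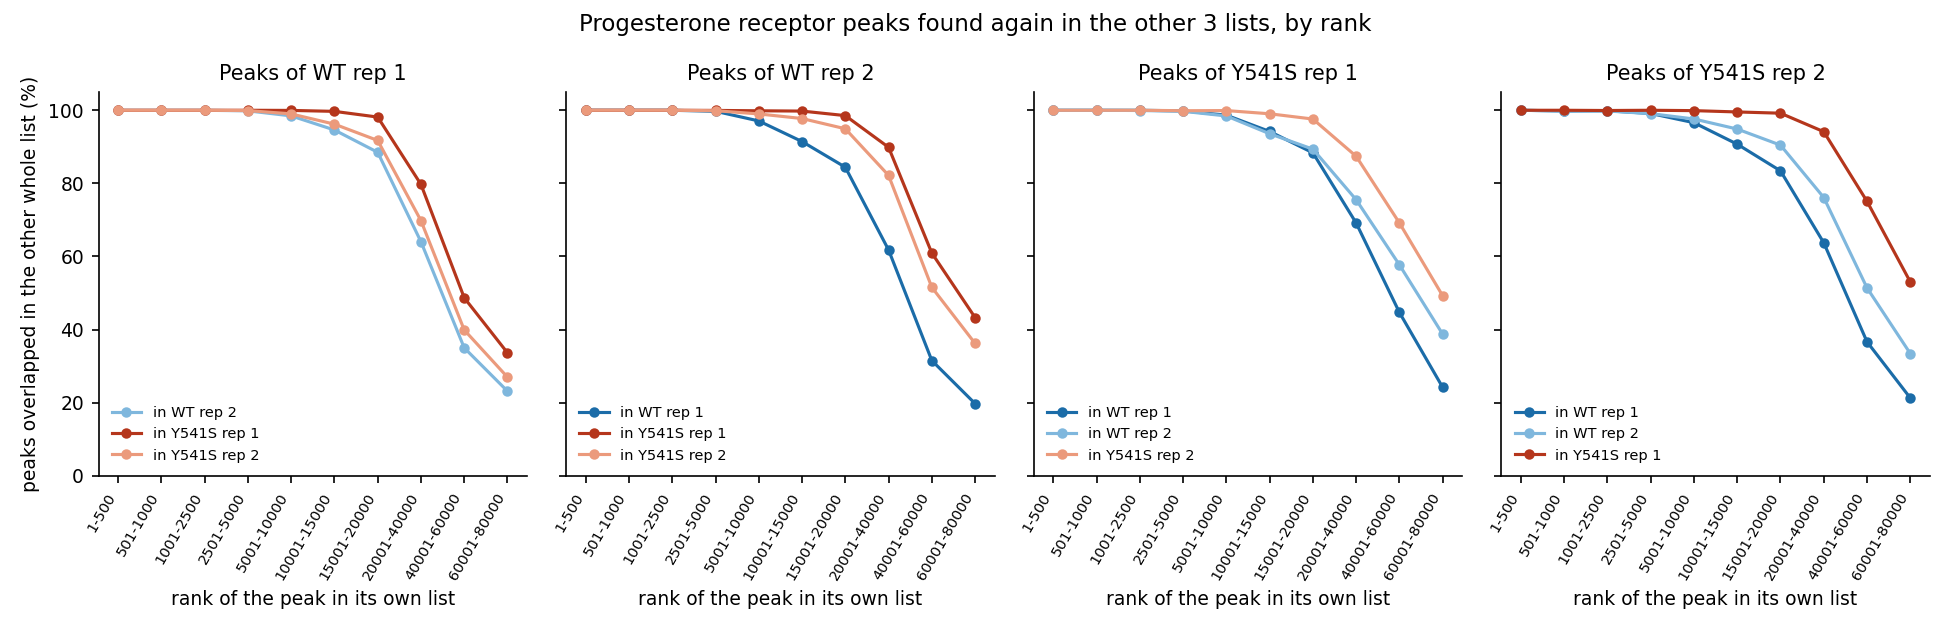
Each panel takes the peaks of 1 library, grouped by rank in their own list (horizontal axis), and gives the percent that overlap a peak in each of the other whole lists (vertical axis). All lines start at 100%, and at ranks 15001 to 20000 the Y541S lists recover 91.7 to 99.2% of each other's and of the WT peaks, while the shorter WT lists recover 83.4 to 90.5%.

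Sequence was read only at promoters. Of the regions in all 4 lists of the 20000 strongest peaks, 6.92% lay within 1 kb of a gene end. The promoters of 4 genes are given as examples, chosen for a motif or a rank change, and do not stand for PR sites in general. They were taken from RefSeq promoter windows on GRCm38.p6 (the assembly behind mm10), among 1722 windows that held the summits of all 4 libraries, and each is printed as the 250 bases before the transcript start, 5′ to 3′ on the gene's strand, in lower case. Capitals mark motif matches. Map3k6, a stress kinase gene, and Mt1, the metallothionein that glucocorticoids induce, are shown because theirs were the best-ranked windows with the full response element GNACANNNTGTNC (N is any base). Mypop and Hnrnpa2b1, an RNA-binding protein gene, are shown because theirs had the largest rise and fall in rank score, ordered by the moderated t of the fit described below.
Map3k6 (chr4:133240568-133240817, plus strand): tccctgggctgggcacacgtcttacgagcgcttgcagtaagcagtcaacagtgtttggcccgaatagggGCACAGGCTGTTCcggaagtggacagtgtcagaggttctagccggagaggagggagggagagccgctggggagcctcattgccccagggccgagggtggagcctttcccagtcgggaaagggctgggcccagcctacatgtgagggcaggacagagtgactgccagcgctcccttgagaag
Mt1 (chr8:94178839-94179088, plus strand): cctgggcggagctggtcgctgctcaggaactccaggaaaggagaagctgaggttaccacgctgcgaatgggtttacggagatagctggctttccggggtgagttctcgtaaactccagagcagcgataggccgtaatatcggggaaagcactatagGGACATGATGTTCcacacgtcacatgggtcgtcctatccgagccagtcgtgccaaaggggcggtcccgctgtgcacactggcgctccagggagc
Mypop (chr7:18990995-18991244, plus strand): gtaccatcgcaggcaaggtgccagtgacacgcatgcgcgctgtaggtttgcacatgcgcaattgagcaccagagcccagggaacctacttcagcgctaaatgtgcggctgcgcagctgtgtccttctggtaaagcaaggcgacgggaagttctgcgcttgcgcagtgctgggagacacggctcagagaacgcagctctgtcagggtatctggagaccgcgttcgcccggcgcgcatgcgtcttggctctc
Hnrnpa2b1 (chr6:51469846-51470095, minus strand): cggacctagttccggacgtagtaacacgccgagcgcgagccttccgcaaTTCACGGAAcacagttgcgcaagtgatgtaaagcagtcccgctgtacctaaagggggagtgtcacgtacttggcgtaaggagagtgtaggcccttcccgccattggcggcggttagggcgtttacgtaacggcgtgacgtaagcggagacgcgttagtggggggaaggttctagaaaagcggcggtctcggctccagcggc

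The Map3k6 match lies 181 to 169 bases before the start, and the summits of WT replicates 1 and 2 and Y541S replicates 1 and 2 lay at -177, -176, -184 and -172 from the start, so 4 of 4 fell on or beside the match. Its ranks among the regions of all 4 lists were 1021 and 1773 in WT and 669 and 517 in Y541S. The Mt1 match lies 94 to 82 bases before the start, with summits at -73 and -67 in WT and at -96 and -100 in Y541S. Mt1 ranked 640 and 940 in WT and 1936 and 1186 in Y541S. Neither window passed the rank test (adjusted p = 0.80 for Map3k6 and 0.86 for Mt1, limma with Benjamini-Hochberg adjustment). Mypop moved from ranks 30850 and 33726 to 11167 and 8286, and Hnrnpa2b1 from 9128 and 4232 to 22448 and 21742, also without passing (adjusted p = 0.45 and 0.49).

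The full response element was rare in promoters of every class. It was found on either strand in 0.442% of the 21262 promoter windows of coding genes (250 bases before to 50 after the start), in 0.379% of the 6866 windows at shared regions, in 0.877% (4) of the 456 windows at Y541S-only regions and in none of the 16 windows at WT-only regions. Among the 1722 windows with 4 summits inside it was found in 0.639%, and among the 9626 windows with no PR region in 0.530%. It was thus no more frequent at shared regions than in windows with no region. Its core ACANNNTGT was found in 5.97% of all windows and 8.32% of those with no region. At shared, Y541S-only and WT-only regions the core was found in 3.60%, 7.02% and 6.25% (1 of 16) of windows. The Hnrnpa2b1 capitals mark the STAT palindrome TTCNNNGAA, which 7.69% of all windows hold. Other motifs searched were the estrogen response element GGTCANNNTGACC, FOXA (TGTTTAC), AP-1 (TGANTCA), NF1 (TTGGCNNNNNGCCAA) and a CTCF core. No window at a shared, Y541S-only or WT-only region held the estrogen element, which 0.0517% of all windows hold.

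Peaks of the 4 lists were merged into 192601 regions wherever they overlapped by 1 bp or more. Of these, 38120 (19.8%) had a peak in all 4 lists and are called shared. A peak in both Y541S lists and neither WT list was found at 13325 regions (6.92%), and the reverse at 1075 (0.558%). Both classes were made of weak peaks. The Y541S-only regions had median ranks of 69101 and 60808 in their own lists, and the WT-only regions of 55388 and 64918 in theirs. Of the Y541S-only regions 44.6% lay outside genes, 47.8% inside genes and 7.61% within 1 kb of a gene end, against 37.9%, 43.8% and 18.3% of the shared regions. An ERα peak in any of the 4 ERα lists overlapped 46.6% of the Y541S-only regions, 45.1% of the WT-only regions and 78.4% of the shared regions.

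With lists of equal length most of the asymmetry was gone. The 20000 strongest peaks of each list gave 32572 regions, of which 10142 (31.1%) were in all 4, 1284 (3.94%) only in the Y541S lists and 973 (2.99%) only in the WT lists. Most of these genotype-restricted regions were weaker in the other genotype rather than without a peak. Of the 1284 Y541S-only regions, 927 (72.2%) had a peak in both whole WT lists, 284 in 1 of them and 73 in neither, which is 5.69% (95% Wilson interval 4.55 to 7.09%). Of the 973 WT-only regions, 894 (91.9%) had a peak in both whole Y541S lists, 76 in 1 and 3 in neither (0.308%, interval 0.105 to 0.903%). The intervals cover counting error only. The WT lists against which absence was judged are the shorter ones and start from weaker enrichment, and the part of this in the difference between 73 and 3 was not tested. With the 10000 strongest peaks, 6 of 680 Y541S-only and 0 of 576 WT-only regions were without a peak in the other genotype, and with the 5000 strongest it was 0 of 330 and 0 of 321. With the 40000 strongest it was 947 of 2948 and 49 of 1416. These counts were not tested over libraries.

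**Figure D2:**
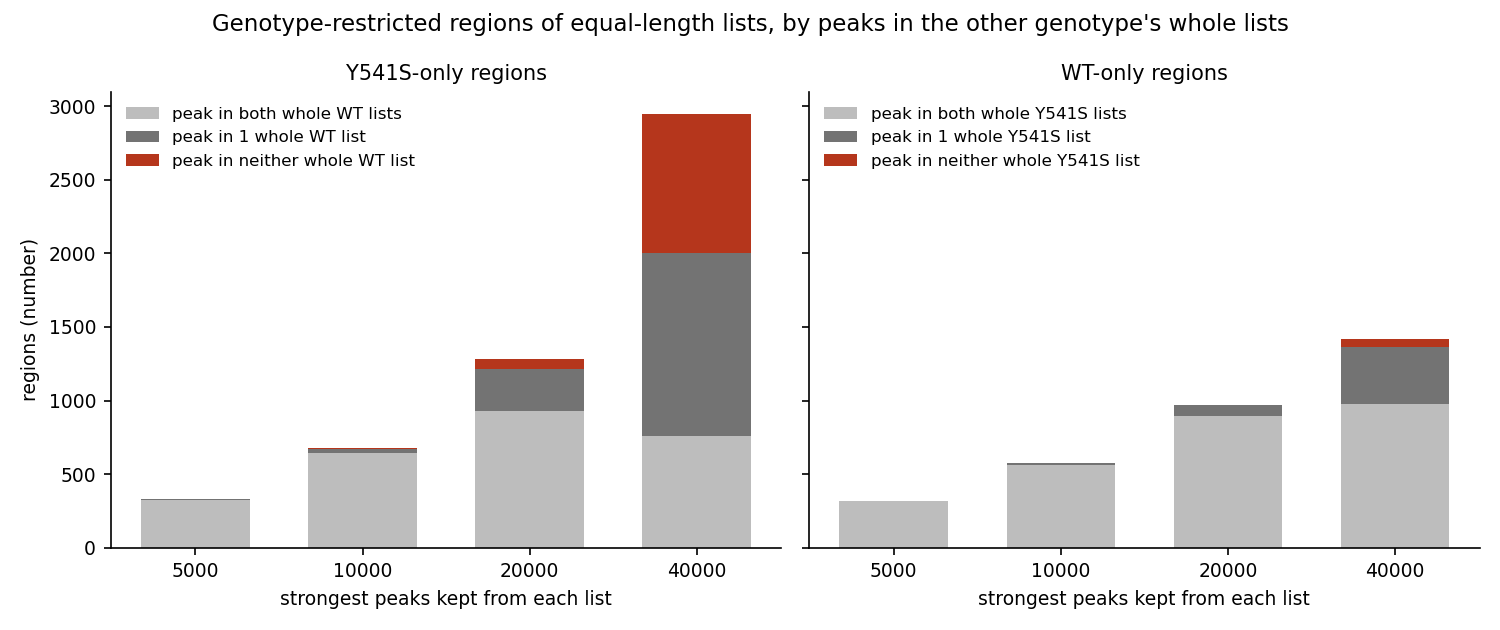
The bars give the number of regions (vertical axis) restricted to 1 genotype when the 5000 to 40000 strongest peaks of each list are kept (horizontal axis), divided by whether the other genotype's whole lists have a peak there. At 20000 the bars reach 1284 and 973, and the part without any peak in the other genotype is 73 for Y541S and 3 for WT.

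Of the 73 strong Y541S regions with no WT peak, 48 (65.8%) lay outside genes by more than 1 kb, 22 inside genes and 3 at a gene end; among all Y541S-only regions of the 20000 strongest 46.5% lay outside genes and among the shared ones 44.6%. Of the 73 regions, 27 overlapped an ERα peak in at least 1 ERα list, 23 of them in Y541S ERα replicate 1 and 4 in WT ERα replicate 1. By the rule of the best weaker rank, the leading region lay on chromosome 18, 250.3 kb from Tshz1, a zinc finger gene, and ranked 5265 and 3981 in Y541S replicates 1 and 2 with folds of 21.3 and 15.6. The region 355.8 kb from Tfec, a transcription factor gene of the MiT family (chr6:16474850-16475457), ranked 7097 and 5206 with folds of 18.3 and 13.6. The region 156.6 kb from the RNA helicase gene Ddx10 (chr9:52941523-52942131) ranked 7864 and 965. None of these 3 regions overlapped a peak in any ERα list.

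The same rule named 5 further regions. Inside Mylk, the myosin light chain kinase of contractile myoepithelial cells (chr16:34821622-34822104), the Y541S peaks ranked 9661 and 6328. The region 189.3 kb from Tle1, a Groucho corepressor gene (chr4:72390079-72390537), ranked 9790 and 2922, and it alone among the 8 had an ERα peak, in both Y541S ERα lists and in neither WT ERα list. The others lay 118.0 kb from Csmd3 (chr15:47462363-47462887), 351.1 kb from the DNA repair gene Mgmt (chr7:136543103-136543575) and 114.1 kb from Ss18, a gene of the SWI/SNF remodelling complex. Their ranks were between 4677 and 11165.

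The 3 WT regions with no Y541S peak were weaker sites. The region 3.82 kb from Mical3, an actin-modifying enzyme gene (chr6:121177353-121177801), ranked 17610 and 16153 in WT replicates 1 and 2, with folds of 3.79 and 4.71, although all 4 ERα lists had a peak there. The region inside Luzp1 (chr4:136524291-136524691) ranked 15028 and 19081, and the region 57.9 kb from Tmem252 (chr19:24615753-24616562) ranked 19386 and 15450. The next 5 by the rule had a weak peak in Y541S replicate 1 alone. Inside Arhgap24 (chr5:102591485-102591874), the ranks were 13360 and 18856 in WT and 101623 in Y541S replicate 1. The others lay inside Acsl6 and Maml2, 55.2 kb from Nectin1 and 1.16 kb from the kinase gene Braf, with Y541S replicate 1 ranks between 67238 and 91064.

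Sites that were strong in both Y541S libraries and present but weak in WT led the regions with peaks on both sides. The region inside Csmd3, a gene for a large transmembrane protein (chr15:47901290-47901912), ranked 70503 and 33576 in the whole WT lists and 3638 and 2992 in the Y541S lists. Its fold was 2.72 and 5.19 in WT and 20.8 and 15.0 in Y541S. The region 739.2 kb from Ddx18 (chr1:122306956-122307475) ranked 21922 and 20302 in WT and 4745 and 4419 in Y541S. The region at the gene end of Inka2 (chr3:105719751-105720488) ranked 43846 and 25679 in WT and 4327 and 5609 in Y541S. The other regions of this kind named by the rule lay near Stpg2, Cachd1 and Slco4c1, and at all 6 the Y541S folds (11.4 to 20.8) were above the WT folds (2.72 to 6.75). Folds were higher in the Y541S lists in general, with medians over the 20000 strongest peaks of 5.67 and 7.75 in WT against 11.9 and 8.94 in Y541S, so a fold difference at a single region includes this offset.

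The same offset works against a lower fold at sites that ranked lower in Y541S. The region 1.17 kb from Slc30a9, a zinc transporter gene (chr5:67305530-67306034), ranked 3351 and 3320 in WT and 41076 and 56742 in Y541S, with folds of 8.60 and 10.1 against 5.06 and 3.80. Inside Etv6, an ETS repressor gene (chr6:134060550-134061182), the ranks were 4488 and 4474 in WT and 20083 and 25267 in Y541S, but the folds of 7.29, 8.44, 7.37 and 5.55 overlapped between genotypes. Inside Igf1r, the receptor of insulin-like growth factor 1 (chr7:68030749-68031303), the ranks were 4898 and 5832 in WT and 29310 and 26672 in Y541S, and the folds of 7.98, 10.4, 8.12 and 6.23 overlapped as well. The regions inside Ctnnbl1, Abhd5 and Sgsm1 ranked between 3235 and 5759 in WT and between 24591 and 34358 in Y541S.

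Some genes gathered several restricted regions within 50 kb. Of the 21883 coding genes, 45.5% had a shared region of the 20000 strongest within that distance, 8.64% a Y541S-only region and 8.47% a WT-only region. In the whole lists it was 78.1%, 55.2% and 9.64%. Man1c1, a Golgi mannosidase gene, had 5 Y541S-only regions, and its number of strong regions was 3 and 1 in the WT libraries and 10 and 8 in the Y541S libraries. Abcc4, which exports cyclic nucleotides and prostaglandins, also had 5, with 12 and 10 strong regions in WT and 19 and 17 in Y541S. Of its 20 shared regions 12 ranked higher in both Y541S libraries than in both WT libraries, and none ranked lower. Over all shared regions 17.7% ranked higher and 17.8% lower. Pard3b, a cell polarity gene, had 4 Y541S-only regions. Lpcat4, Nutm1 and Gm52523 shared 3 at a single locus. These genes were picked for their Y541S-only regions, so their numbers of strong regions and their rank rises are no separate support.

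Among WT-only regions the largest number at a gene was 3. Cdt1, which licenses replication origins, and its neighbours Aprt and Galns shared 3 such regions; Cdt1 had 5 and 4 strong regions in WT and 1 and 2 in Y541S. At Rassf8 the libraries of WT held 8 and 7 strong regions and those of Y541S held 5 and 3. Nedd4l, a ubiquitin ligase gene, had 3 WT-only regions beside 1 Y541S-only region, and its strong regions numbered 11 and 12 in WT and 11 and 6 in Y541S. Etv6, also with 3 WT-only regions, had 15 and 14 strong regions in WT and 8 and 8 in Y541S. Of its 20 shared regions 9 ranked lower in Y541S and 1 higher. The genes of this paragraph were picked for their WT-only regions or after their values were seen, so these counts are likewise no separate support.

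The 38120 shared regions were ranked among themselves in each library, converted to normal scores and compared between genotypes with limma, so that a difference of 1 is 1 SD of the ranking. At an adjusted p of at most 0.05, 1 region was higher in Y541S (0.00262%) and 3 were lower (0.00787%). An unadjusted p under 0.05 was reached by 2672 regions (7.01%). The 2 Y541S ranks lay above the 2 WT ranks at 6741 regions (17.7%) and below them at 6782 (17.8%). Ranking the same regions in every library balances rises against falls, so these shares do not show whether binding rose or fell in general.

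The region that rose was the Csmd3 region given above, from ranks 36736 and 26840 in WT to 3637 and 2984 in Y541S. The score difference was 2.56 ± 0.50 (SE, n = 2 libraries per genotype), with adjusted p = 0.049. The call was lost when either Y541S library was left out (adjusted p of 0.31 without replicate 1 and 0.9999 without replicate 2) and in the fit with no trend term (adjusted p = 0.87). Its peak was also wider in Y541S, with 593 and 584 bp against 236 and 237 bp in WT, though not by the width test below (adjusted p = 0.89).

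The clearest fall was among the strongest sites of all. The region 17.7 kb from Kif11, the mitotic kinesin gene (chr19:37358202-37359137), ranked 4 and 2 in WT and 83 and 63 in Y541S, a score difference of -0.95 ± 0.15 (SE, n = 2 libraries per genotype; adjusted p = 0.0015). All 4 ERα lists had a peak there. It passed with each library left out in turn (adjusted p of at most 0.010). Its folds of 14.7 and 18.7 in WT against 19.7 and 18.4 in Y541S did not fall with its rank, and ranked by fold the difference was -0.37 with adjusted p = 0.86; the call was also lost with log2 ranks (0.63) and within the 20000 strongest (0.13). Inside Rin2, an exchange factor gene for Rab5 (chr2:145798902-145799443), ranks went from 458 and 220 to 2909 and 7954, and the difference was -1.27 ± 0.24 (SE; adjusted p = 0.049). At the Slc30a9 region given above they went from 3346 and 3317 to 29622 and 33839, with a difference of -2.35 ± 0.46 (SE; adjusted p = 0.049). The Rin2 and Slc30a9 calls were lost when replicate 2 of WT was left out (adjusted p = 0.057 and 0.075) or that of Y541S (0.64 and 0.13), and the Rin2 call also when ranked by fold (0.18). None of the 3 falls passed in the fit with no trend term (adjusted p = 0.87 for each).

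The other regions named for their moderated t did not pass in this fit, with adjusted p between 0.11 and 0.15. With the replicate number added to the fit as a block all of them passed (adjusted p 0.0016 to 0.0086, limma). The labels do not state that the replicate numbers pair the libraries. Among those higher in Y541S, the region inside Bbs9, a gene of the ciliary BBSome complex (chr9:22627114-22627618), ranked 12231 and 17802 in WT and 1396 and 1541 in Y541S. The region 60.6 kb from Zc3h12c (chr9:52228905-52229738) ranked 569 and 1116 in WT and 90 and 47 in Y541S, but its rank by fold did not follow, with a difference of -0.12. Inside Prkca, the gene of protein kinase C alpha (chr11:107974411-107975035), the ranks were 13789 and 29737 in WT and 2593 and 2121 in Y541S. The regions near Slitrk5, Pi4k2b, Abat and Cemip likewise had separate ranks in the 2 genotypes.

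Among those lower in Y541S, the ranks inside Maml3, a Mastermind coactivator gene (chr3:51788700-51789327), were 6970 and 1254 in WT and 27053 and 25126 in Y541S. The region 198.6 kb from its closest coding gene, Hes1 (chr16:29866442-29866979), ranked 7016 and 1626 in WT and 20568 and 35505 in Y541S. The regions inside Syt2 and Thsd4 ranked between 184 and 299 in WT and between 1787 and 4068 in Y541S, and the region 410.0 kb from Nyap2 went from 2949 and 2817 to 13276 and 34157.

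**Figure D3:**
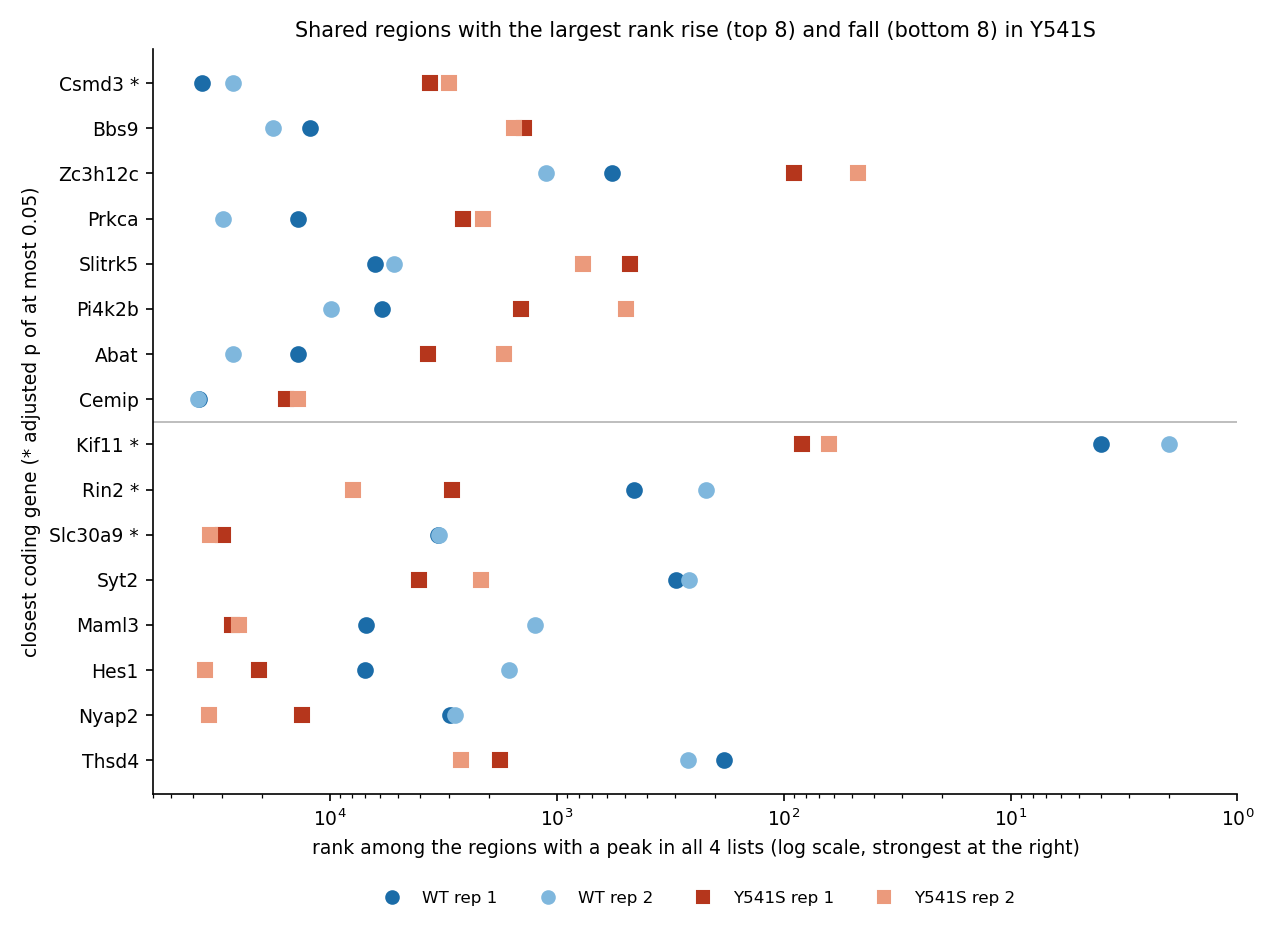
The points give the rank among shared regions (horizontal log axis, strongest at the right) in each of the 4 libraries, for the 8 regions with the largest rise and the 8 with the largest fall, named by closest coding gene (vertical axis). The 2 genotypes do not overlap at any of the 16 regions, since they were chosen by moderated t among regions whose genotypes do not overlap, and 4 of them (asterisks) passed the adjusted test, Csmd3 upward and Kif11, Rin2 and Slc30a9 downward.

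Peaks were wider in Y541S at most ranks, mainly against WT replicate 1. The median width of the 20000 strongest peaks was 397 and 519 bp in WT replicates 1 and 2 and 548 and 546 bp in Y541S replicates 1 and 2. The means were 458 ± 86.3 bp and 547 ± 1.41 bp (SD, n = 2 each), and the exact permutation test gave p = 0.33. The difference of 89 bp was 151 bp between the libraries numbered 1 and 27 bp between those numbered 2. The narrowest peak of a list was 180 bp in WT replicate 1 and 200 to 205 bp in the others.

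**Figure D4:**
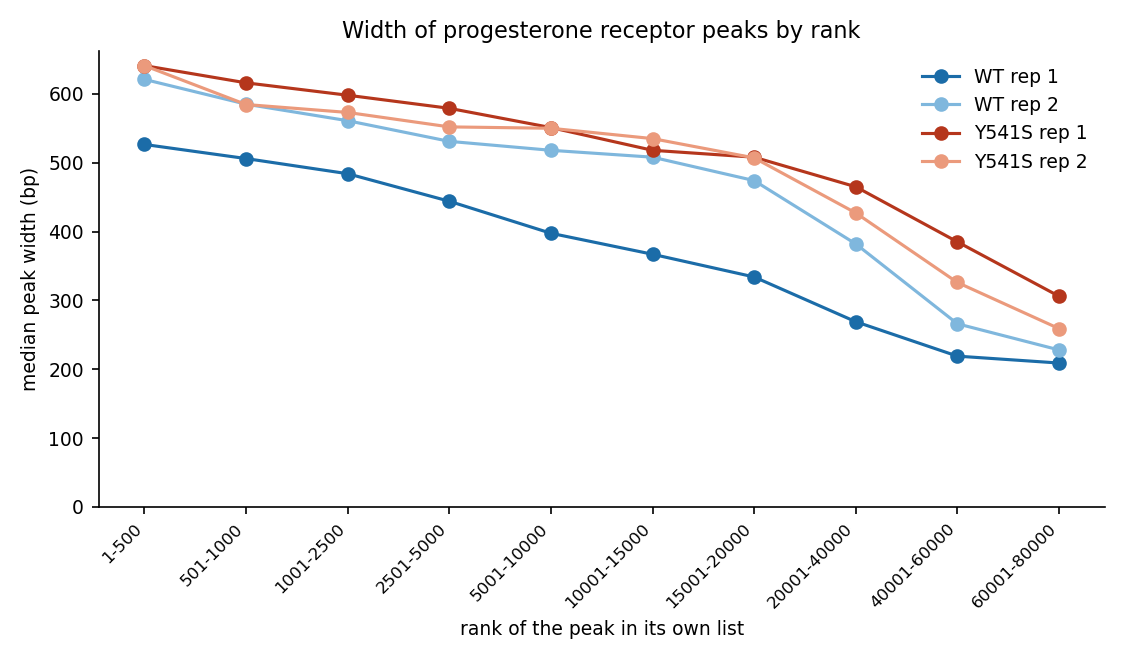
The lines give the median peak width in bp (vertical axis) for peaks grouped by rank in their own list (horizontal axis), 1 line for each library. WT replicate 1 lies below the other 3 libraries in every group, and WT replicate 2 runs close to the Y541S libraries down to rank 15000 and below them after that.

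Region by region, no width difference passed. After each library's widths at the shared regions were centred on its median on the log2 scale, limma called 0 of 38120 regions at an adjusted p of at most 0.05, and 2013 (5.28%) had an unadjusted p under 0.05. By these centred widths, Y541S peaks were wider without overlap between the genotypes at 15.8% of regions and narrower at 20.7%. Before centring, median widths at the shared regions were 358 and 466 bp in WT and 547 and 499 bp in Y541S. Centring takes out such differences between libraries, so the 2 shares do not show whether peaks were wider or narrower in bp. The 8 regions named for width ranked between 16857 and 37869 among the shared regions, so the largest differences were not at strong sites. At the gene end of Slc46a1, the folate transporter gene (chr11:78465303-78466600), the covered width was 180 and 200 bp in WT, which is the narrowest peak either list holds, and 1079 and 1214 bp in Y541S. Inside Rassf5 (chr1:131237920-131239582) it was 180 and 269 bp in WT and 1616 and 1010 bp in Y541S. The other 2 named for width were Vangl1, a planar polarity gene, and Thbs1, which encodes thrombospondin 1. Narrower peaks in Y541S were named near Shld2 (561 and 734 bp against 231 and 279 bp), St3gal4, Kif5c and Enah.

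The signals and receptors of progesterone action showed no uniform direction. Their counts are read against all shared regions, of which 17.7% ranked higher in both Y541S libraries and 17.8% lower. Of all coding genes, 4.21% had more strong regions in both Y541S libraries than in both WT libraries and 5.86% had fewer. Of the 273 genes in the lists described below, 7.33% had more and 11.7% had fewer. At Tnfsf11, the ligand by which progesterone drives proliferation of neighbouring cells, the strongest shared region (chr14:78346760-78347326, 39.0 kb away) ranked 153 and 75 in WT and 98 and 214 in Y541S, so the genotypes overlapped. Of the 6 shared regions of Tnfsf11, 3 ranked higher in both Y541S libraries and 0 lower. Its strong regions numbered 3 and 2 in the WT libraries, and 4 in each Y541S library. Wnt4, the Wnt ligand induced by progesterone, had 5 strong regions in each WT library and 7 in each Y541S library. Of its 7 shared regions, 3 ranked higher and 1 lower. The strongest, inside the gene (chr4:137287212-137287929), ranked 1217 and 908 in WT and 701 and 1107 in Y541S, so the genotypes overlapped. Another, 21.8 kb away (chr4:137255485-137256207), ranked 8535 and 6564 in WT and 3234 and 3422 in Y541S. Its difference was 0.51 ± 0.30 (SE, adjusted p = 0.79). Areg, the epidermal growth factor receptor ligand that acts downstream of ERα, had 3 shared regions, of which 0 ranked higher and 1 lower.

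The hormone receptor genes and Greb1 are read against the 17.7% of all shared regions that ranked higher in Y541S and the 17.8% that ranked lower. Pgr had 3 shared regions, 1 higher and 1 lower, the leading of them 2.00 kb away (chr9:8970188-8971029) at ranks 21129 and 13294 in WT and 26840 and 27097 in Y541S; its difference was -0.67 ± 0.56 (SE; adjusted p = 0.88). Esr1, the mutated gene, had 13 shared regions, of which 0 ranked higher and 4 lower in Y541S. A leading region inside the gene (chr10:4624633-4625827) ranked 353 and 1845 in WT and 1830 and 1358 in Y541S. Peaks do not show the substitution itself, so they give no check of the genotype labels. Prlr, the prolactin receptor gene, had 11 shared regions with 1 higher and 6 lower, although its best rank was between 81 and 200 in each of the 4 libraries. Greb1, an ERα target gene, had 11 with 1 higher and 4 lower.

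Gene lists were read in the same way, against all shared regions, of which 17.7% ranked higher in both Y541S libraries and 17.8% lower. No shared region near any of the 273 listed genes passed the adjusted test. Of all coding genes, 4.21% had more strong regions in both Y541S libraries than in both WT libraries and 5.86% had fewer. Over the 273 listed genes together it was 7.33% and 11.7%. Of the 32907 shared regions within 50 kb of any coding gene, 16.8% ranked higher and 18.0% lower, and ranked by fold 16.2% and 19.5%. Of the same regions, 48.5% ranked higher in Y541S between the libraries numbered 1 and 49.7% between those numbered 2. Near the 273 listed genes 15.6% ranked higher and 20.7% lower.

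The Wnt pathway list leaned toward Y541S. Of the 182 shared regions near its 34 genes, 48 (26.4%) ranked higher in Y541S and 22 (12.1%) lower. Of the 34 genes, 7 had more strong regions in both Y541S libraries (Wnt4, Fzd4, Rspo3, Lgr5, Lgr6, Sfrp2 and Apcdd1) and 0 had fewer; with a distance of 20 kb it was 4 with more and 2 with fewer. Lgr5, an R-spondin receptor gene that marks stem cells in several epithelia, had 2 shared regions, both higher, and its best ranks were 28338 and 26749 in WT against 6149 and 7688 in Y541S. Apcdd1, a Wnt inhibitor gene, had 3 of 4 higher, and Rnf43, whose product removes Wnt receptors, 3 of 8, with 0 lower at either. Wnt5b had 3 of 9 higher and 0 lower. The median rank of the 182 regions was 21460 and 20763 in WT and 16779 and 18804 in Y541S. In the comparison between libraries numbered 1, 61.5% of these regions ranked higher in Y541S, and between those numbered 2 it was 51.6%, so the lean lay mainly in the first. Ranked by fold, 23.1% were higher and 17.6% lower.

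Genes of hormone-sensing luminal cells leaned toward WT. Of the 99 shared regions near the 18 genes of this list, 7 (7.07%) ranked higher in Y541S and 29 (29.3%) lower. Pgr, Prlr, Prom1 and Krt8 had fewer strong regions in both Y541S libraries, and no gene had more. The antiapoptotic gene Bcl2 had 0 of 10 regions higher and 2 lower. The median rank was 16654 and 17356 in WT and 20546 and 18926 in Y541S. The direction lay mainly in the libraries numbered 1, where 27.3% of the regions ranked higher in Y541S, whereas 48.5% did between those numbered 2. Ranked by fold, 10.1% were higher and 27.3% lower.

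Genes induced by progestins or glucocorticoids leaned the same way in both pairs. Of 171 shared regions near 22 genes, 20 (11.7%) ranked higher in Y541S and 47 (27.5%) lower, and 40.9% and 40.4% ranked higher in Y541S between the libraries numbered 1 and 2. The number of strong regions was near even over the 22 genes, with 3 genes that had more in both Y541S libraries and 4 that had fewer. Hsd11b2, which inactivates glucocorticoids, had 0 of 13 regions higher and 6 lower, and its number of strong regions was 7 and 5 in WT and 1 and 4 in Y541S. Mt1 had 0 of 9 higher and 6 lower, and Ddit4 1 of 12 higher and 6 lower, although its strong regions numbered 10 in each WT library and 11 in each Y541S library. Fkbp5, a chaperone gene of the steroid receptors, had 14 regions, 3 higher and 6 lower, and its best ranks were 62 and 22 in WT and 302 and 91 in Y541S. Zbtb16 held some of the strongest sites of all, with best ranks of 11 and 3 in WT against 32 and 1 in Y541S. Tsc22d3 (GILZ) went the other way, with 2 of 10 higher and 0 lower.

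**Figure D5:**
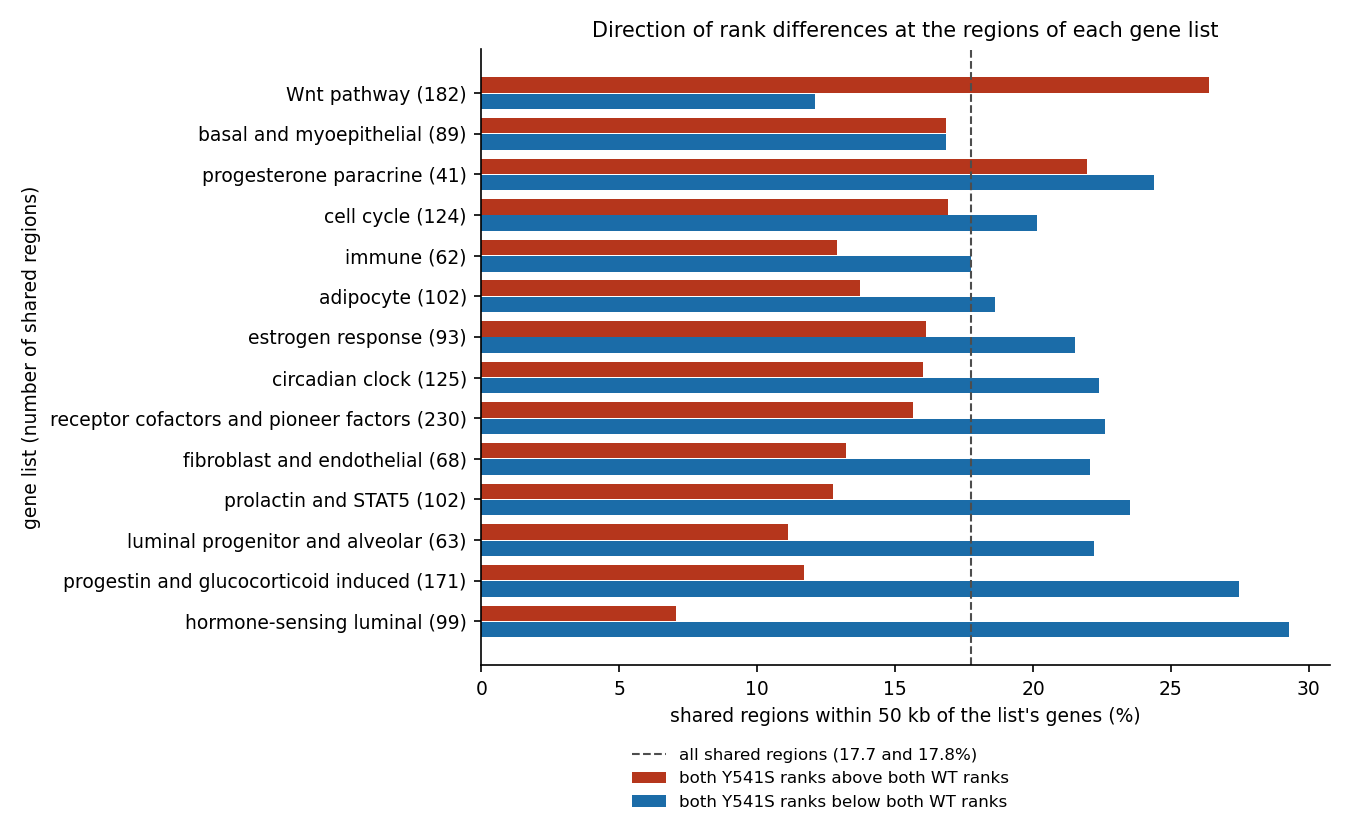
For each gene list (vertical axis, with its number of shared regions), the bars give the percent of shared regions within 50 kb of its genes (horizontal axis) at which both Y541S ranks lay above, or both below, the 2 WT ranks. The dashed line marks all shared regions (17.7 and 17.8%); the Wnt pathway list has 26.4% above and 12.1% below, and the hormone-sensing luminal list 7.07% and 29.3%.

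The remaining lists had a larger share lower than higher, apart from the basal and myoepithelial list, where 15 of 89 regions went each way. Within that list Mylk had 3 of 7 shared regions higher and 0 lower, and Krt17 2 of 5 and 0. All 15 lower regions lay near other genes of that list, so these 2 genes do not stand for it. Prolactin and STAT5 genes had 13 of 102 regions higher and 24 lower, with Gadd45g at 1 and 5 of 8. Luminal progenitor and alveolar genes had 7 of 63 higher and 14 lower, 5 of the lower at Lif. Receptor cofactor and pioneer factor genes had 36 of 230 higher and 52 lower. Cell cycle genes had 21 of 124 higher (16.9%) and 25 lower (20.2%), circadian clock genes 20 of 125 and 28, and estrogen response genes 15 of 93 and 20. Progesterone paracrine genes had 9 of 41 higher (22.0%) and 10 lower (24.4%). Their median score difference was 0.16, toward Y541S, so that list gave no direction.

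Genes of other cell types of the gland also lay near PR sites. Adipocyte genes had 102 shared regions near 19 of 20 genes, 14 higher and 19 lower, and the best rank at the lipid droplet gene Cidec was between 801 and 2115 in each of the 4 libraries. Fibroblast and endothelial genes had 9 of 68 higher and 15 lower, among them Pdgfra, whose only shared region ranked 11686 and 9799 in WT and 22521 and 30747 in Y541S. Immune genes had 8 of 62 higher (12.9%) and 11 lower (17.7%). A peak near a marker gene does not show which cells the chromatin came from, and the part of cell composition in these directions was not tested. Regions within 1 kb of a gene end, at which 9.29% ranked higher and 14.2% lower over all shared regions, made up 6.06% of the hormone-sensing luminal regions, 14.3% of the Wnt pathway regions and 17.5% of the progestin and glucocorticoid regions, against 18.3% of all shared regions.

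At regions where ERα peaks were restricted to 1 genotype, PR ranks leaned toward that genotype. The Y541S ERα lists were longer, with 106926 and 105612 peaks against 72566 and 64488 in WT. At the 1823 shared PR regions with an ERα peak in both Y541S ERα lists and in neither WT ERα list, 28.5% ranked higher for PR in Y541S and 13.6% lower. Their median PR rank was 20338 and 21397 in WT and 17103 and 19174 in Y541S, and the median score difference was 0.15 between the libraries numbered 1 and 0.12 between those numbered 2. At the 239 regions with an ERα peak in both WT and neither Y541S ERα list, 9.62% ranked higher and 25.1% lower. Their median PR rank was 16025 and 15356 in WT and 15801 and 19253 in Y541S. The median score difference there was -0.06 between the libraries numbered 1 and -0.22 between those numbered 2, so this lean lay mainly in the second. At the 8221 regions with no ERα peak in any list, 20.5% ranked higher and 18.3% lower. At the 11834 shared regions with a peak in all 4 ERα lists, 11.2% ranked higher for PR in Y541S and 17.4% lower. There the PR and ERα score differences had a Pearson correlation of 0.11 and a Spearman correlation of 0.11. By replicate number, the Pearson correlation was 0.073 and 0.097 for same-numbered PR and ERα libraries and 0.025 and 0.047 for differently numbered ones. These correlations are a description across regions of the same libraries. Among the 20000 strongest, an ERα peak in any list overlapped 61.8% of Y541S-only, 69.5% of WT-only and 85.4% of shared regions.

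The replicate numbers moved with several of these measures as much as genotype did. The share of the 20000 strongest peaks within 1 kb of a gene end was 9.56% and 6.41% in the WT and Y541S libraries numbered 1, and 19.0% and 19.1% in those numbered 2. Across the shared regions the ranks of WT replicate 1 had a Spearman correlation of 0.76 with Y541S replicate 1 and of 0.64 with WT replicate 2, while the 2 Y541S libraries had 0.74 with each other. The X chromosome held 2.34% of the Y541S-only, 1.40% of the WT-only and 1.47% of the shared regions of the whole lists. Among the regions of the 20000 strongest peaks it held 2.41% of the Y541S-only, 1.13% of the WT-only and 1.21% of the shared ones. Of the 20000 strongest peaks themselves it held 1.32, 1.27, 1.49 and 1.29% in WT replicates 1 and 2 and Y541S replicates 1 and 2.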

How the data were processed

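Peak lists were called for each library separately on mm10, per the submitters' processing notes; the caller, aligner and thresholds are not given in the sources used here. In the deposited lists each peak has a score, a fold enrichment (ratio), a −log10 p and a −log10 q from the authors, and the lowest −log10 p kept was about 2. Total read depth is unknown, but fold and −log10 p together gave a whole-number summit coverage for 100% of peaks (tolerance 1e-04 on the −log10 p), and the scaled alternatives use it.

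Peaks of the 4 PR lists were merged (1 bp overlap). Libraries were compared with exact permutation tests, and regions with limma 3.58.1 (eBayes with trend, R 4.3.3) on normal scores of rank or on log2 width. The fits were Benjamini-Hochberg adjusted over all 38120 shared regions. The rank fit was tested on simulated scores. It called 12 of 100 regions shifted by 1 and 50 of 100 shifted by 2, and 6 of 37920 unshifted regions. A region that did not pass can therefore still differ. Regions were linked to RefSeq coding genes within 50 kb of the region's midpoint; the closest gene of a named region can be farther away, and a link is no evidence of regulation. All 273 listed symbols matched.

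The members, the gene lists and the rules were chosen with earlier results of these data known. Named regions are given by their closest coding gene. The rule took the 8 best-ranked restricted regions per genotype without a peak, or with the weakest, in the other, the 8 largest rises and falls by moderated t among regions whose genotypes did not overlap, the 4 widest and narrowest by moderated t, the 6 and 4 genes with most restricted regions, up to 3 genes per list and 6 known targets. All other genes, among them the 6 restricted regions per genotype with peaks in both, the 6 strongest shared regions, the promoters and Etv6, were chosen after their values were seen. P-values measure the spread between these libraries. In the limma fits the SE and p of a region also draw, through eBayes, on the spread at the other fitted regions, not on its own libraries alone.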

Additional observations from a re-analysis of the deposited data

How the results depend on the processing

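Numbers of regions restricted to 1 genotype changed with list length, threshold and the libraries used. Against 13325 Y541S-only and 1075 WT-only regions of the whole lists, the 20000 strongest gave 1284 Y541S-only regions, a −log10 p of at least 5 gave 245 WT-only regions, a −log10 q of at least 1.3 gave 615, coverage scaled to the shallowest library gave 464, and scaled coverage with a −log10 p of at least 5, an alternative chosen after seeing the data, gave 5927 Y541S-only and 21 WT-only. Leaving out a library gave 19203 to 41764 and 1637 to 27880, since fewer lists then define a class. For the 20000 strongest (1284 and 973), the 10000 strongest gave 680 and 576, the 40000 strongest gave 2948 Y541S-only, and leaving out a library gave 2355 to 3975 and 1742 to 4097. Listed genes with a restricted region fell from 33 to 20 (Y541S-only) and from 34 to 22 (WT-only) at 20 kb.

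The replicate numbers are not stated to pair the libraries, and the deviations of same-numbered libraries correlated with r = 0.19 over 38120 regions. Within replicate 1 and 2, the replicate block gave 62460 and 45241 Y541S-only and 30048 and 36517 WT-only regions of the whole lists, and 5226 and 6301 and 5149 and 6292 of the 20000 strongest. In the rank fit the block raised the calls from 1 higher and 3 lower to 70 and 46, and the 12 named rises and falls that had not passed all passed with it (adjusted p 0.0016 to 0.0086, limma). Ranking by fold gave 17 and 1, log2 ranks 15 and 12, no trend 0 and 0 (2147 with an unadjusted p under 0.05), the regions of the 20000 strongest 1 lower, and leaving out a library 0 to 284 higher and 2 to 34 lower; the extremes of 284 and 34 came with WT replicate 1 left out, and the fits lacking WT replicate 2, Y541S replicate 1 or Y541S replicate 2 gave 77 and 11, 0 and 8, and 1 and 2. Each such fit takes the spread of the lone library from the other genotype. The causes were not tested.

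The width fit made 0 calls in each of the 8 alternatives run, with 608 to 6143 unadjusted p under 0.05. The median width difference (71.5 bp in whole lists) was 45.5 to 97.5 bp without a library, 110 bp within replicate 1 and 33 bp within replicate 2, and the log2 difference in peak number (0.29) 0.20 to 0.37. The share at gene ends was -0.21 percentage points in Y541S and turned to 0.98 when WT replicate 2 was left out, to 0.64 when Y541S replicate 1 was, and to 0.12 within replicate 1 (range without a library -1.40 to 0.98). Of the values for named regions under alternatives, 135 kept direction and side of the threshold, 42 newly passed, 14 no longer passed and 1 reversed, Zc3h12c by fold (-0.12).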
